A study of Homo sapiens with 36 samples.

Results

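The 47 genes described here carry out or directly serve DNA replication: they license and fire replication origins, unwind and copy the DNA, join the fragments of the lagging strand, make deoxynucleotides, and rebuild chromatin behind the fork. They were chosen by name, as gene symbols in the deposited count tables, and all 47 were found among 19137 symbols. For the 20 genes with several transcript rows, the row with the highest mean count over all 36 libraries was kept. Ribosome profiling, which sequences the messenger RNA fragments covered by ribosomes, and RNA sequencing were carried out in 2 human models of cell transformation. In the MCF10A-ER-Src model, a breast epithelial line carries a Src kinase joined to an oestrogen receptor domain that responds to tamoxifen. 4-hydroxytamoxifen at 1 µM was given for 1, 4 or 24 h, and cells at 0 h or in ethanol for 1, 4 or 24 h were the uninduced controls. All of these groups, the controls included, carry the fusion. The other model consists of 3 BJ skin fibroblast lines with the names EH, EL and ELR, which the labels leave unexplained. As background, lines of such a series carry telomerase, then also the early region of SV40, then also an oncogenic HRAS. HRAS footprints were at 28.8 and 26.1 CPM (read counts per 1e6 counts of the library, after scaling for library composition) in EH, 33.7 and 33.1 CPM in EL, and 139 and 153 CPM in ELR. Each stage is represented by 1 line, so an effect of the added genes cannot be told apart from other differences between the lines.

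Footprints were taken after 100 µg/ml cycloheximide for 90 s, which stops elongating ribosomes, or after a 5 min treatment with harringtonine (2 µg/ml), a drug that stalls newly started ribosomes at start codons. Per BJ line there were 2 cycloheximide, 2 harringtonine and 1 RNA library. The ER-Src cells had 10 cycloheximide libraries, of which each tamoxifen time held 2 and each control 1, and also 7 RNA and 4 harringtonine libraries with 1 per group. Total counts ranged from 1178012 to 3628073 under cycloheximide, from 129175 to 374359 under harringtonine and from 2071883 to 3008760 for RNA. Every member had counts in all cycloheximide libraries. No label says that replicates were separate cultures, so p-values measure the spread between these libraries, which may be technical. That spread was narrow in the BJ cycloheximide libraries (biological coefficient of variation 1.80%) and wider in the ER-Src ones (13.9%). The summed footprints of 10 epithelial markers ran from 11099 to 22064 CPM in the ER-Src libraries and from 57.9 to 271 CPM in the BJ libraries. The sum of 10 fibroblast markers was 29719 and 30517 CPM in EH, 4813 and 4736 CPM in EL, and 1249 and 1283 CPM in ELR, where DCN was at 0 in both libraries and LUM at 0 in 1. ELR thus lacked part of the marker set of its labelled cell type. ESR1, whose hormone-binding part the fusion carries, had 0 footprints in the BJ libraries and 769 to 1703 CPM in the ER-Src ones. Leukocyte and endothelial markers summed to at most 51.5 and 8.09 CPM.

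As background, replication is licensed when the origin recognition complex (ORC), CDC6 and CDT1 load the ring of MCM2 to MCM7 onto DNA in G1, and geminin (GMNN) holds CDT1 in check afterwards. CDC45 and the GINS complex join the ring to make the active helicase. Polymerase alpha with its primase starts each strand, the RFC clamp loader places the PCNA ring, and polymerases delta and epsilon extend. Many of these genes are switched on together at the G1/S boundary by E2F transcription factors, which are restrained by the retinoblastoma protein family, and their messages are high in proliferating cells of most tissues. In bulk samples, fewer cells in S phase and less message per cell cannot be told apart.

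The promoters of the members are shown first because their shared letters are the feature the group is known for. RefSeq windows on GRCh38.p14 (250 bases before to 50 after the start of the gene) matched 41 of the 47 genes. The letters TTTCGCGC, TTTGGCGC, TTTCCCGC or TTTGCCGC, searched on both strands and called E2F-type here, occurred in 21 of the 41 (51.2%), against 5.40% of 13994 genes with such a window. Matches can overlap each other. CCAAT occurred in 26 of the 41 (63.4%), against 42.4% of the genes. The mitotic CHR letters TTTGAA or TTCGAA occurred in 4 of the 41 (9.76%), against 17.3%. A match is a description of the letters and not a site of binding. For 6 genes, a stretch of 80 bases upstream of the start follows, 5′ to 3′ on the strand of the gene, with the E2F-type letters in capitals. The genes are PCNA, MCM6, RFC3, GINS2, TYMS and E2F1 itself. PCNA had the largest footprint fall among genes called after Src induction, and it rose from EH to EL. MCM6, RFC3 and GINS2 rose in the BJ series, and of these RFC3 and GINS2 fell after Src induction. TYMS fell in both models.
PCNA: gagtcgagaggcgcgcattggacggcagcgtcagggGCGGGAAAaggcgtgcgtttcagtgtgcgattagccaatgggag
MCM6: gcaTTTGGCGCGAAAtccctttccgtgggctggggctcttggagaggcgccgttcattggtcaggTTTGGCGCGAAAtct
RFC3: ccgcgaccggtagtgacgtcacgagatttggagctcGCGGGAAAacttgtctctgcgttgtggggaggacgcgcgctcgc
GINS2: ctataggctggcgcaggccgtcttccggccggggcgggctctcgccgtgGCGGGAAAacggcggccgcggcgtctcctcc
TYMS: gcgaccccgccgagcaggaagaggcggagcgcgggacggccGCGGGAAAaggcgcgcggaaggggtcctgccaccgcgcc
E2F1: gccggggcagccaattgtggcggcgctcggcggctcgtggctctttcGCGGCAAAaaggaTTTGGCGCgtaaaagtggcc
The stretches lie at chr20:5126638-5126717 on the minus strand (PCNA), chr2:135876519-135876598 on the minus strand (MCM6), chr13:33818058-33818137 on the plus strand (RFC3), chr16:85688955-85689034 on the minus strand (GINS2), chr18:657573-657652 on the plus strand (TYMS) and chr20:33686386-33686465 on the minus strand (E2F1). MCM6 held 4 matches, as a pair of overlapping ones at each end of its stretch, E2F1 held 2, and the other 4 genes held 1 each. The letters occurred in 9 of 21 genes whose footprints fell at 24 h of Src induction and in 12 of 20 that were not called, and in 15 of 32 genes that rose from EH to EL and in 6 of 9 that did not.

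From EH to EL, footprints of most replication genes rose. Of the 47, all of which passed the filter on low counts, 37 were higher and 2 lower in EL at an adjusted p under 0.05 (edgeR quasi-likelihood test, Benjamini-Hochberg adjustment over 9996 genes), and 8 were not called. Under the wider ER-Src spread 31 were called, and both lower calls (RRM2 and TYMS) and those of TK1, CDT1, LIG1, POLD2, RFC3 and GINS4 were lost. Across all genes tested, 41.5% were called and 19.1% were called higher. The median log2 change was 0.75 over the members and -0.01 over all genes, and single members ranged from -0.34 (RRM2) to 1.51 (GINS1). The summed level of the 47 genes was 6188 and 6364 CPM in EH, 8453 and 8501 CPM in EL and 7962 and 7961 CPM in ELR. Over the same libraries the sum of 26 mitosis genes went the other way, from 11205 and 11055 CPM in EH to 7977 and 7876 CPM in EL and 7010 and 7005 CPM in ELR. The part of this shift in the members' changes was not tested.

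**Figure D1:**
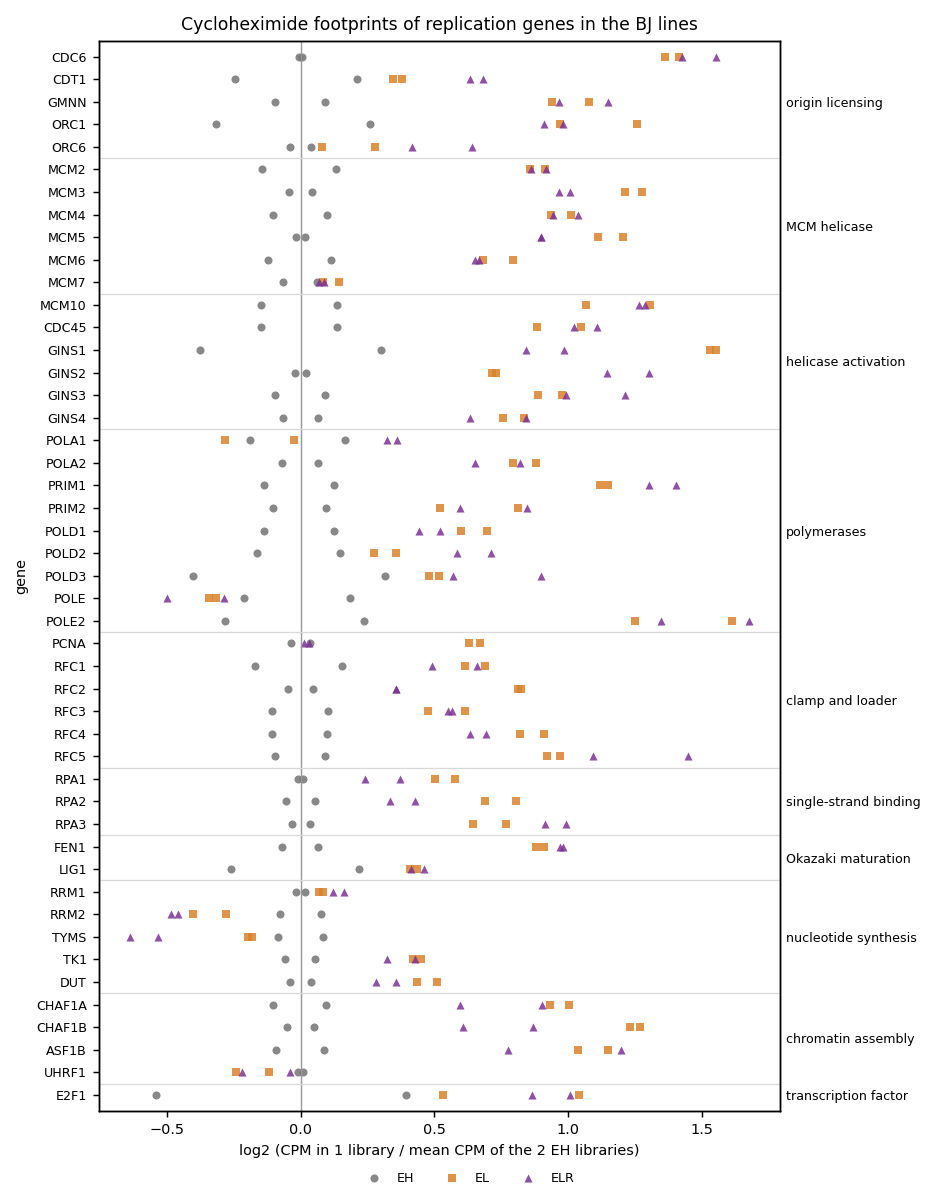
Cycloheximide footprints of the 47 genes in each BJ library, as log2 CPM relative to the mean of the 2 EH libraries (x axis), with genes in rows grouped by role; grey circles are EH, orange squares EL and purple triangles ELR. Most EL and ELR points lie to the right of 0, while RRM2, TYMS and POLE lie to the left and PCNA returns to 0 in ELR.

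Among the genes of origin licensing, 4 of 5 rose. CDC6, the ATPase that helps load the MCM ring, was at 42.8 and 43.1 CPM in EH, 110.4 and 115 CPM in EL and 126 and 116 CPM in ELR. EL and ELR lay above EH without overlap, and EL was 2.61 times EH (log2 change 1.39, SE 0.14, adjusted p = 1.78e-13). ORC1, the largest ORC subunit, rose from 20.3 ± 5.67 to 44.1 ± 6.20 CPM (mean ± SD, n = 2 each), and GMNN rose from 54.8 ± 5.03 to 110.4 ± 7.49 CPM. CDT1, which brings MCM to the origin, rose less (log2 change 0.38, SE 0.13, adjusted p = 0.0153), and ORC6 was not called (log2 change 0.17, SE 0.14, adjusted p = 0.339).

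Of the 6 subunits of the MCM ring, the motor of the replicative helicase, 5 rose. MCM3 was at 137 and 145 CPM in EH, 341 and 326 CPM in EL and 275 and 283 CPM in ELR. MCM5 was at 171 and 175 CPM in EH, 374 and 399 CPM in EL and 323 and 323 CPM in ELR. MCM4 was at 202 and 233 CPM in EH, 439 and 417 CPM in EL and 446 and 419 CPM in ELR. MCM5 lies at chr22:35796127-35821424 on the plus strand of GRCh37. In these 3 genes both EL libraries lay above both EH libraries, with log2 changes of 1.25, 1.16 and 0.99 and adjusted p-values of 5.10e-22, 4.00e-22 and 5.70e-20. MCM2 and MCM6 rose by 0.87 and 0.74 on the log2 scale. MCM7 was not called: it had 439 ± 27.5 CPM in EH and 476 ± 13.7 CPM in EL (log2 change 0.11, SE 0.057, adjusted p = 0.129).

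The genes that turn the ring into an active helicase all rose from EH to EL (6 of 6, median log2 change 0.94). GINS1 was at 25.9 and 16.2 CPM in EH, 61.6 and 60.7 CPM in EL and 37.7 and 41.6 CPM in ELR, which is the largest rise of any member at this step (log2 change 1.51, SE 0.20, adjusted p = 1.32e-09). MCM10, a scaffold at firing origins, rose by 1.21 and CDC45 by 0.96 on the log2 scale. GINS2, GINS3 and GINS4 rose by 0.72, 0.92 and 0.79. All 6 clamp and loader genes rose as well, with a median of 0.73. PCNA, the sliding clamp, was at 417 and 397 CPM in EH, 629 and 648 CPM in EL and 410.0 and 416 CPM in ELR. Its 2 EL libraries were the highest, and its EH and ELR libraries overlapped. RFC2, a small subunit of the clamp loader, was at 65.7 and 70.1 CPM in EH, 120.3 and 119 CPM in EL and 86.9 and 86.9 CPM in ELR, with EL highest and ELR between EL and EH. RFC5, RFC4, RFC1 and RFC3 rose by 0.95, 0.88, 0.64 and 0.53.

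Among 9 polymerase genes 6 rose. The accessory subunit of polymerase epsilon, POLE2, rose from 15.3 ± 3.83 to 41.5 ± 7.33 CPM (n = 2 each, log2 change 1.45, SE 0.24, adjusted p = 7.72e-07). The catalytic subunit POLE went the other way without being called (83.0 ± 16.1 CPM in EH, 66.0 ± 0.837 CPM in EL, adjusted p = 0.0599). The primase subunits PRIM1 and PRIM2 rose by 1.12 and 0.68, and the B subunit of polymerase alpha, POLA2, by 0.85. The catalytic subunit POLA1 overlapped between the lines (log2 change -0.12, SE 0.17, adjusted p = 0.604). POLD1, the catalytic subunit of polymerase delta, rose by 0.66 and its partner POLD2 by 0.30, while POLD3 missed the threshold (log2 change 0.47, SE 0.20, adjusted p = 0.0502). The 3 subunits of RPA, which coats single-stranded DNA, rose by 0.54 to 0.75. FEN1, the flap nuclease of lagging-strand maturation, was at 120.4 and 109.7 CPM in EH, 216 and 212 CPM in EL and 226 and 227 CPM in ELR, with EL and ELR above EH (log2 change 0.89, SE 0.094, adjusted p = 9.12e-13). LIG1, which seals the nicks, rose by 0.40 (adjusted p = 0.0299). Of the chromatin genes, the assembly factors CHAF1A and CHAF1B and the histone chaperone ASF1B rose by 0.98, 1.26 and 1.09. UHRF1, which recruits the maintenance DNA methyltransferase, was not called (log2 change -0.19, SE 0.080, adjusted p = 0.0558).

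The 5 nucleotide synthesis genes did not move as 1 group. RRM2, the small subunit of ribonucleotide reductase that limits its activity in S phase, was at 973 and 1082 CPM in EH, 778 and 847 CPM in EL and 748 and 734 CPM in ELR. It stepped down from EH to EL (log2 change -0.34, SE 0.045, adjusted p = 2.35e-09) and from EL to ELR (log2 change -0.13, SE 0.043, adjusted p = 0.0133), with no overlap between lines. Under the wider ER-Src spread neither step of RRM2 was called. TYMS, which makes thymidylate, was at 473 and 531 CPM in EH, 442 and 438 CPM in EL and 347 and 323 CPM in ELR, and fell at both steps, -0.18 from EH to EL (adjusted p = 0.00769) and -0.39 from EL to ELR (adjusted p = 1.18e-08). TK1, the thymidine salvage kinase, rose from 384 ± 21.1 to 519 ± 7.24 CPM and DUT, which removes dUTP, rose from 221 ± 8.82 to 307 ± 11.0 CPM. RRM1, the large reductase subunit, was not called (log2 change 0.079, SE 0.056, adjusted p = 0.271). E2F1 had low footprints of 5.17 and 9.89 CPM in EH, 15.5 and 10.9 CPM in EL and 13.7 and 15.1 CPM in ELR. Its 2 EL libraries exceeded its 2 EH libraries without passing the test (log2 change 0.87, SE 0.38, adjusted p = 0.06), and ELR against EH passed (log2 change 0.96, SE 0.38, adjusted p = 0.027). That call was lost with DESeq2, under the wider ER-Src spread, and without EH replicate 1 or either ELR library.

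From EL to ELR the members split. Of 47, 7 were higher and 11 lower in ELR, with 36.1% of all genes called, 17.4% higher and 18.7% lower, and the median log2 change of the members was 0.01. The share of members called (38.3%) is near that background. Genes that had risen in EL and fell again in ELR numbered 9: MCM3, MCM5, GINS1, PCNA, RFC2, DUT, CHAF1B, RPA1 and RPA2. Those that rose at both steps numbered 5: CDT1, GINS2, RFC5, POLD2 and RPA3. The other 23 that had risen in EL were not called between EL and ELR.

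The fall with the smallest p was that of PCNA, whose ELR values overlapped those of EH (log2 change -0.63, SE 0.047, adjusted p = 5.27e-19). GINS1 fell by 0.64 and RFC2 by 0.46 on the log2 scale, each to a level still above EH. CHAF1B was at 25.1 and 27.0 CPM in EH, 62.8 and 61.2 CPM in EL and 39.6 and 47.5 CPM in ELR. RPA2 was at 83.5 and 89.9 CPM in EH, 139.9 and 151 CPM in EL and 109 and 117 CPM in ELR, and RPA1 at 173 and 171 CPM in EH, 244 and 256 CPM in EL and 222 and 203 CPM in ELR. DUT was at 215 and 227 CPM in EH, 315 and 299 CPM in EL and 283 and 269 CPM in ELR. In each of these 4 genes ELR lay between EH and EL without overlap. GINS2, which rose at both steps, was at 51.7 and 50.3 CPM in EH, 84.7 and 83.8 CPM in EL and 113 and 126 CPM in ELR. RFC5 likewise was at 45.1 and 51.2 CPM in EH, 91.1 and 94.2 CPM in EL and 131 and 103 CPM in ELR. The rise at the second step was 0.49 for GINS2 (adjusted p = 3.65e-05) and 0.36 for RFC5 (adjusted p = 0.00248). RPA3 was at 85.7 and 81.8 CPM in EH, 131 and 143 CPM in EL and 167 and 158 CPM in ELR and POLD2 at 87.9 and 71.0 CPM in EH, 102 and 96.1 CPM in EL and 119 and 130.1 CPM in ELR. Among genes not called from EH to EL, 2 rose from EL to ELR: POLA1, at 43.6 and 55.7 CPM in EH, 48.8 and 40.8 CPM in EL and 62.1 and 63.7 CPM in ELR, and ORC6, at 70.2 and 66.5 CPM in EH, 72.2 and 82.9 CPM in EL and 107 and 91.2 CPM in ELR. These calls rest on the narrow spread of the BJ libraries: with the spread of the ER-Src cycloheximide libraries 2 of the 18 passed, with DESeq2 5 passed, and without ELR replicate 1 there were 11.

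Across the whole series, from EH to ELR, 40 members were higher and 3 lower (53.4% of all genes called, 25.5% higher), with a median of 0.73. The lower ones were RRM2 (-0.46), TYMS (-0.57) and POLE (-0.39). Under the wider ER-Src spread 29 members were called, RRM2 and POLE not among them. The POLE call was also lost with DESeq2 and without EH replicate 2 or ELR replicate 1. The 4 not called were MCM7, PCNA, POLA1 and UHRF1. The largest rises were those of POLE2 (1.57), CDC6, PRIM1 (1.33) and RFC5 (1.32).

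RNA, with 1 library per line and therefore no test, went the same way as footprints for most members. Genes are described here as log2 ratios of CPM + 1 and counted when at least 1.5-fold apart. From EH to EL 21 of 47 members were at least 1.5-fold higher and none lower, where 13.1% of all genes were that much higher. From EL to ELR 4 were higher (11.3% of all genes), and from EH to ELR 27 (17.3% of all genes). The median log2 ratios were 0.57, 0.08 and 0.67. Levels in EH, EL and ELR were 76.0, 187 and 265 CPM for CDC6, 312, 557 and 408 CPM for PCNA and 243, 235 and 223 CPM for RRM2. CDC6 was higher at each stage, and PCNA was highest in EL as were its footprints. RRM2 RNA was slightly lower at each stage, while its footprints stepped down. Neither step of RRM2 was called in the test of footprint change beyond RNA, described next.

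**Figure D2:**
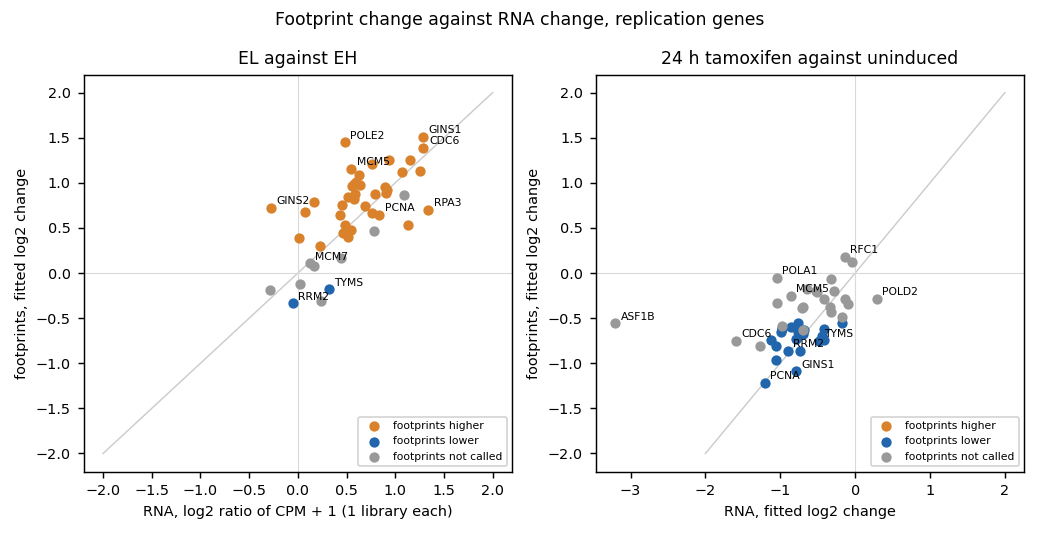
Footprint change (y axis, fitted log2 change) against RNA change (x axis, log2) for each gene, EL against EH on the left and 24 h of tamoxifen against uninduced on the right; orange is called higher, blue called lower and grey not called in footprints, and the grey line marks equal change. Most genes lie in the quadrant where both rise (left) or both fall (right); GINS2 on the left and ASF1B on the right lie far from the line, and E2F1, with no RNA counts at 24 h, is not drawn on the right.

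Ribosome loading, the change of footprints beyond that of RNA, was tested as an interaction. From EH to EL 4 members were called (6.71% of all genes), which is close to the background share. MCM5, MCM4 and GINS2 gained loading, with log2 changes of 0.62, 0.43 and 1.02 and adjusted p-values of 4.51e-04, 0.00232 and 0.0139. TYMS lost loading (log2 change -0.49, SE 0.13, adjusted p = 0.00586). In RNA, GINS2 was at 36.6, 30.0 and 56.0 CPM, MCM5 at 177, 259 and 282 CPM and TYMS at 156, 194 and 149 CPM over the 3 lines, so that GINS2 message was lowest in EL while its footprints rose. From EL to ELR MCM5 (-0.42) and MCM7 (-0.37) lost loading (2.97% of all genes called). RNA had 1 library per line, assumed to vary like the footprints. DESeq2 called none of the members at either step. With edgeR at an unadjusted p under 0.05, 11 and 14 members passed, against 2106 and 1530 of all 11081 genes.

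Harringtonine footprints were sparse, and 32 of the 47 members passed the filter. CDC6 and MCM5 rose from EH to EL (18.5% of all genes called). CDC6 had 71.6 and 49.8 CPM in EH and 201 and 197 CPM in EL (log2 change 1.69, SE 0.41, adjusted p = 4.25e-04), and MCM5 rose by 0.70 (adjusted p = 0.0338). From EL to ELR TYMS fell (log2 change -0.84, SE 0.30, adjusted p = 0.0334, 16.3% of all genes called). DESeq2 called none of these 3. The MCM5 call was lost without any 1 of EH replicate 1 or 2, EL replicate 1 or 2, or ELR replicate 2, and the TYMS call without any 1 EL or ELR library.

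Neighbouring genes of the same processes, from lists that share no gene with the 47, are read against the 41.5% of all genes called and 19.1% called higher from EH to EL. Of 34 further replication genes 19 rose and none fell from EH to EL, with KIAA0101, the PCNA-associated factor, at a log2 change of 1.01, the histone chaperone NASP at 0.74 and the checkpoint mediator CLSPN at 1.13. Of 33 further nucleotide metabolism genes 16 rose and 6 fell. SAMHD1, which breaks deoxynucleotides down, rose by 3.05 into EL and fell by 1.71 into ELR, and NME1 and IMPDH2 rose by 0.72 and 0.63. Of 27 G1/S regulators 9 rose and 4 fell. The share called in either direction was near the background, and the share called higher was above it. The cyclin CCND1 changed by -1.82 and the inhibitors CDKN2A and CDKN1A by 3.51 and -1.69. Mitosis genes went against the members, with 2 of 26 higher and 19 lower and a median of -0.39, led by CENPF (-1.24), TOP2A (-0.85) and PLK1 (-0.86).

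Footprint density, as CPM per kilobase of coding length, allows subunits of 1 complex to be set side by side. By the group mean, MCM7 was the densest and MCM2 the least dense MCM subunit in each of the 3 BJ lines and 4 ER-Src groups. MCM7 was at 204 ± 12.8 CPM per kb in EH and 220.5 ± 6.35 in EL (mean ± SD, n = 2), and the ratio of the 2 mean densities was 5.05 in EH, 2.96 in EL and 2.88 in ELR. RRM2 was 4.70 times as dense as RRM1 in EH (4.50 to 4.89 over the libraries), 3.52 times in EL (3.35 to 3.69) and 3.07 times in ELR (at most 3.14), with no overlap. In ER-Src cells the ratio was 5.96 uninduced (5.11 to 6.48) and 4.44 at 24 h (4.40 to 4.49). RPA3, the smallest RPA subunit, was 2.48 times as dense as RPA1 in EH and 3.88 times in ELR. Lengths are those of 1 annotated canonical coding sequence per gene, which need not be that of the transcript row counted. Ratios between genes, that of RRM2 to RRM1 among them, depend on this choice. PRIM2 and UHRF1, whose lifted coding lengths are not multiples of 3, were left out.

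**Figure D3:**
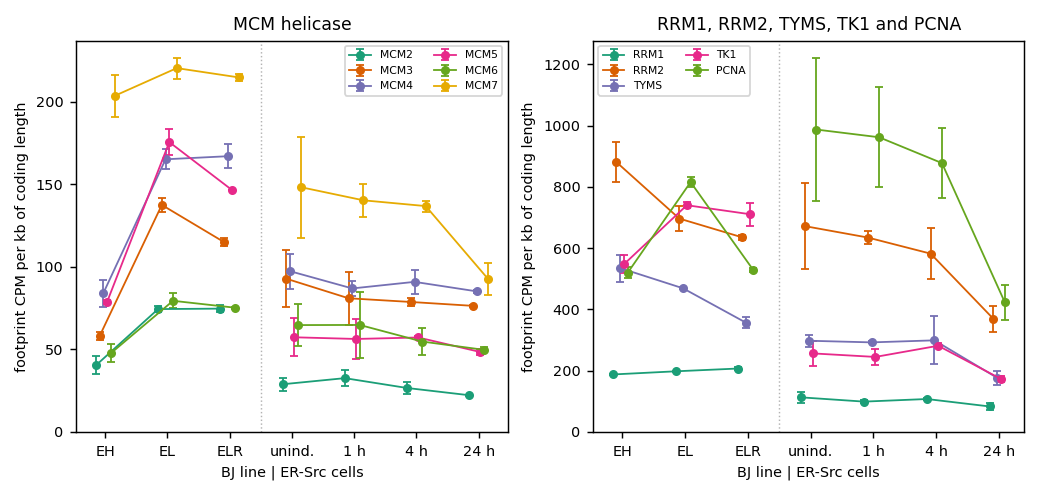
Cycloheximide footprint density (CPM per kb of coding length, y axis) of the MCM subunits (left panel) and of RRM1, RRM2, TYMS, TK1 and PCNA (right panel) in the 3 BJ lines and 4 ER-Src groups; points are means and bars SDs over 2 libraries (4 for uninduced). MCM7 lies above the other MCM subunits throughout, RRM2 steps down from EH to ELR, and PCNA is highest in EL among the BJ lines and lowest at 24 h among the ER-Src groups.

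In ER-Src cells, many of the replication genes fell after 24 h of tamoxifen and none was called before. Compared with the 4 uninduced libraries (untreated cells of replicate 1 plus the 3 ethanol libraries of replicate 2), 22 of 47 members were lower and none higher in footprints at 24 h (14.6% of all genes called, 5.84% lower). The median log2 change was -0.60 against -0.01 over all genes, and 45 of 47 had a negative sign. In RNA, 13 were lower and none higher (6.47% of all genes called, 1.8% lower), with a median of -0.70. At 1 h no member was called in footprints (0.0196% of all genes called) or RNA (0.00942%), and at 4 h none in footprints (0.854%) or RNA (0.16%). At an unadjusted p under 0.05 edgeR had 3, 0, 0 and 2 members in these 4 comparisons, and DESeq2 called none. Over all genes tested, 795, 259, 760 and 492 passed that threshold, of 10193, 10612, 10193 and 10612. The 24 h libraries also differed from the 1 h tamoxifen libraries, with 14 members lower and none higher (13.6% of all genes called, 5.88% lower, median -0.61).

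The 24 h counts rest on few libraries. Without tamoxifen 24 h replicate 1 there were 4 footprint calls, without replicate 2 there were 6, and without the ethanol 1 h library 12. With DESeq2 the calls of CHAF1A, MCM10, POLA2 and RFC4 were lost. Against 1 h they were 5 without either 24 h library and 4 without 1 h replicate 2. For RNA, where 24 h is 1 library assumed to vary like the controls, there were 29 calls without the ethanol 24 h library, 4 without ethanol 1 h, 8 without ethanol 4 h and 5 without 0 h. In the uninduced arm vehicle and replicate number cannot be told apart. Its libraries also differ in time, and differences between control times count as spread in these tests.

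**Figure D4:**
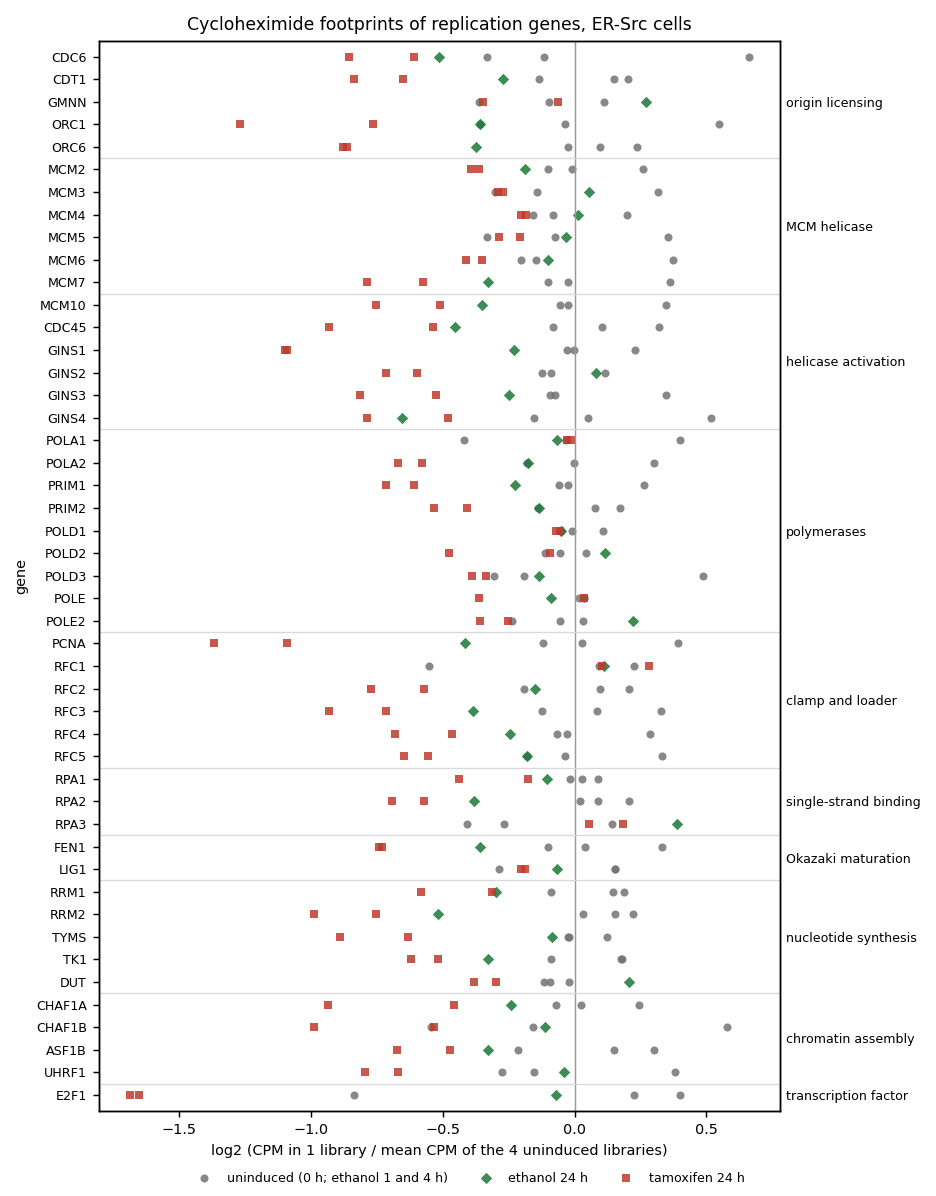
Cycloheximide footprints of the 47 genes in ER-Src cells, as log2 CPM relative to the mean of the 4 uninduced libraries (x axis), with genes in rows grouped by role; grey circles are 0 h and ethanol at 1 and 4 h, green diamonds ethanol at 24 h and red squares tamoxifen at 24 h. Most tamoxifen points lie to the left of 0, also for genes not called, and for many of the genes called lower ethanol at 24 h is the lowest of the controls.

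PCNA had the largest footprint fall among the genes called. It lies, as a protein-coding gene, at chr20:5095599-5107272 on the minus strand of GRCh37. It was at 711 CPM at 0 h, 1013, 788 and 579 CPM after 1, 4 and 24 h of ethanol, and 299.6 and 363 CPM after 24 h of tamoxifen. Both 24 h libraries lay below every control, and the level was 331 ± 44.9 CPM (mean ± SD, n = 2) against 773 ± 182 CPM (n = 4), log2 change -1.22, SE 0.20, adjusted p = 5.53e-04. Its RNA fell alike, from 615 ± 105 CPM (n = 4) to 266 CPM (log2 change -1.21, SE 0.21, adjusted p = 0.00251). The loaders RFC2, RFC3, RFC4 and RFC5 fell by 0.56 to 0.81 in log2 units. RFC3 was at 102 CPM at 0 h, 140.0, 118 and 85.5 CPM after 1, 4 and 24 h of ethanol, and 58.4 and 68.0 CPM after 24 h of tamoxifen, with no overlap (log2 change -0.81, SE 0.18, adjusted p = 0.00593). RFC1, the large loader subunit, had 64.0 ± 13.9 CPM uninduced and 73.4 ± 6.42 CPM at 24 h and was not called (adjusted p = 0.581).

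Helicase activation genes fell in 4 of 6 cases. GINS1 was at 49.0 CPM at 0 h, 58.6, 49.9 and 42.6 CPM after 1, 4 and 24 h of ethanol, and 23.4 and 23.5 CPM after 24 h of tamoxifen, with 24 h at 0.470 times the uninduced mean and no overlap (log2 change -1.09, SE 0.18, adjusted p = 5.47e-04). GINS2, CDC45 and MCM10 fell by 0.67, 0.70 and 0.61. Of the licensing genes, CDT1 was at 79.9 CPM at 0 h, 77.0, 63.3 and 57.6 CPM after 1, 4 and 24 h of ethanol, and 44.3 and 38.8 CPM after 24 h of tamoxifen (log2 change -0.74, SE 0.17, adjusted p = 0.00687). ORC1 went from 44.5 ± 14.3 (n = 4) to 22.3 ± 5.47 CPM (n = 2) and ORC6 changed by -0.87 on the log2 scale, both called. GMNN, at 155 ± 28.6 and 135 ± 18.6 CPM, was not. Of the MCM ring, MCM7 alone was called, at 319.8 ± 66.2 CPM uninduced and 200.1 ± 21.1 CPM at 24 h (log2 change -0.67, SE 0.17, adjusted p = 0.0126). The other 5 subunits had log2 changes from -0.38 (MCM6) to -0.20 (MCM4). In replicate 2, set against ethanol at 24 h, the log2 ratio was -0.24 for MCM7 and from -0.33 (MCM3) to -0.17 (MCM2) for the others. In replicate 1, set against 0 h, it was -0.69 for MCM7 and from -0.29 (MCM2) to 0.01 (MCM3) for the others. MCM7 thus stood apart from the ring in replicate 1 only. MCM7 was the subunit not called from EH to EL, and a difference between the 2 models was not tested.

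Among nucleotide genes RRM2, TYMS and TK1 fell. RRM2 was at 801 CPM at 0 h, 915, 871 and 548 CPM after 1, 4 and 24 h of ethanol, and 395 and 465 CPM after 24 h of tamoxifen (log2 change -0.86, SE 0.18, adjusted p = 0.00449). TYMS was at 274 CPM at 0 h, 275, 305 and 263 CPM after 1, 4 and 24 h of ethanol, and 151 and 180.4 CPM after 24 h of tamoxifen, with the 4 controls close together and both 24 h libraries below them (log2 change -0.75, SE 0.15, adjusted p = 0.00341). TK1 fell from 179.9 ± 29.3 to 121 ± 6.13 CPM. RRM1 and DUT were not called (adjusted p = 0.0632 and 0.101). Of 9 polymerase genes 2 were called: PRIM1 and POLA2 fell by 0.65 and 0.62, while POLA1, POLD1 and POLE had log2 changes of -0.051, -0.064 and -0.18 and adjusted p-values of 0.914, 0.808 and 0.613. FEN1 fell by 0.73, RPA2 by 0.62, CHAF1A by 0.64 and UHRF1 by 0.74. LIG1, RPA1 and RPA3 were not called.

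In both footprints and RNA, 7 genes were lower: MCM7, MCM10, PCNA, RFC2, RFC3, RRM2 and FEN1. These 7 are 31.8% of the members' lower footprint calls and 53.8% of their lower RNA calls. Over all genes, the 101 lower in both were 17.0% of the lower footprint calls and 52.9% of the lower RNA calls. The RNA calls of RFC2 and FEN1 were lost with DESeq2. RNA alone was called lower for MCM5, CDC6, POLA1, CHAF1B, ASF1B and E2F1. The POLA1 call was lost with DESeq2 and with other (RLE) size factors. CDC6 RNA went from 194 ± 56.6 CPM (n = 4) to 64.7 CPM (log2 change -1.59, SE 0.32, adjusted p = 0.00742). E2F1 RNA had 7 to 16 counts in the uninduced libraries (4.48 ± 1.35 CPM, n = 4) and 0 counts at 24 h of tamoxifen. Against a floor of 3 counts per library it was at least 4.16-fold below the mean of the 4 uninduced libraries. The ethanol 24 h library alone, at 7 counts (2.78 CPM), lay nearer to that floor (1.08 CPM). The E2F1 call was lost with DESeq2 and without the 0 h, ethanol 1 h or ethanol 4 h library. E2F1 footprints were at 4.52 CPM at 0 h, 5.11, 2.17 and 3.68 CPM after 1, 4 and 24 h of ethanol, and 1.23 and 1.20 CPM after 24 h of tamoxifen, with no overlap and no call (adjusted p = 0.102). ASF1B was the 1 member with a called change in loading (log2 change 2.62, SE 0.57, adjusted p = 0.0385, 0.44% of all genes called). It had 41 to 73 RNA counts in the uninduced libraries and 6 at 24 h, while its footprints changed by -0.56 (not called). The call was lost with DESeq2, without either 24 h footprint library and without the ethanol 4 h footprint library.

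Levels also differed between times in ethanol, where Src was not induced. The sum of the 47 genes in RNA was 6716 CPM at 0 h, 6875, 5509 and 5612 CPM after 1, 4 and 24 h of ethanol, and 6762, 5501 and 4005 CPM after 1, 4 and 24 h of tamoxifen. In RNA the tamoxifen and ethanol sums were nearly equal at 1 and 4 h, and at 24 h tamoxifen was lower. In footprints of replicate 2 the sums in ethanol and tamoxifen were 7516 and 6569 CPM at 1 h, 6356 and 6227 CPM at 4 h and 5603 and 4428 CPM at 24 h, so tamoxifen was lower at 1 h as well. Set against the ethanol library of the same time, a comparison chosen after seeing the data and with 1 library a side, 40 of 45 members were lower in RNA at 24 h (median log2 ratio -0.54), 13 of them at least 1.5-fold, where 9.18% of all genes were that much lower. In footprints of replicate 2, 43 of 46 were lower at 24 h (median -0.30), 6 of them at least 1.5-fold against 8.01% of all genes. The same comparison at 1 h had 39 of 46 lower (median -0.18), 2 of them at least 1.5-fold, against 4.04% of all genes. At 4 h 25 of 46 were lower (median -0.03). The medians over all genes were -0.003 in RNA at 24 h, and -0.004, -0.002 and 0.007 in footprints at 24, 1 and 4 h. The fall against the ethanol library of 24 h was therefore less than that against all 4 controls, -0.60. Ethanol at 24 h against ethanol at 1 h gave medians of -0.46 in footprints and -0.36 in RNA on its own. Within replicate 1, 24 h against 0 h, 40 of 47 were lower (median -0.49), where 49.8% of all genes were lower. For PCNA the log2 ratio of tamoxifen to ethanol at 24 h was -0.67 in footprints and -0.86 in RNA, for GINS1 -0.83 and -0.03, for TYMS -0.54 and -0.36, and for RRM2 -0.23 and -0.48. Over the 22 genes called lower in footprints, this footprint ratio ran from -0.83 (GINS1) to -0.09 (CDC45). It was -0.16 for MCM10, -0.19 for TK1 and RPA2 and -0.21 for CHAF1A, each a smaller fall than against the 4 controls.

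**Figure D5:**
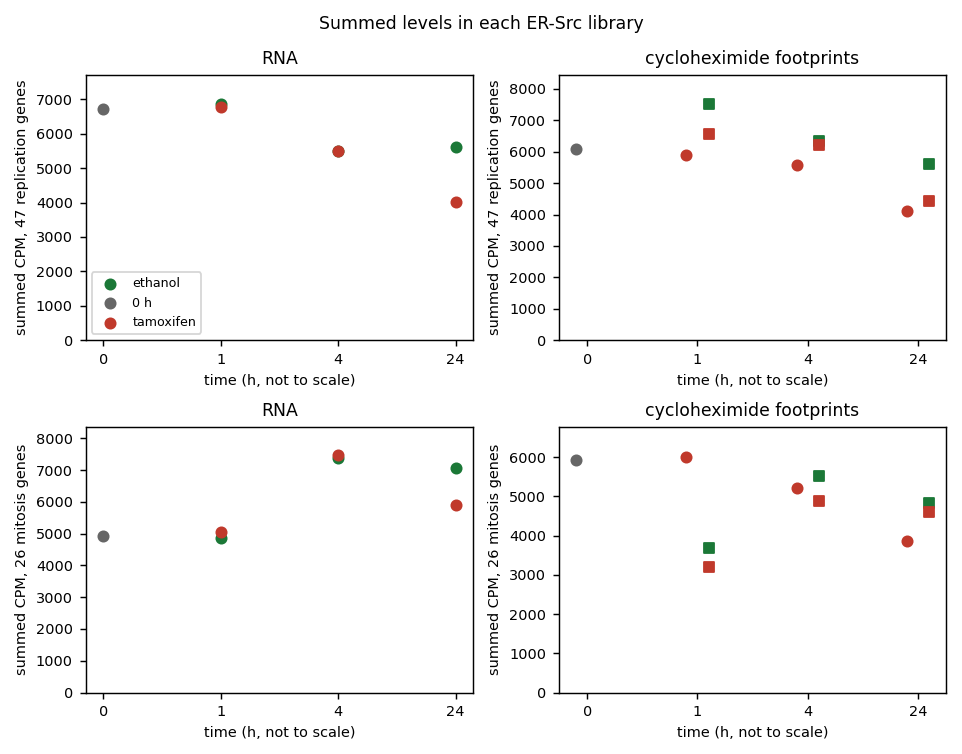
Summed CPM of the 47 replication genes (top) and of 26 mitosis genes (bottom) in each ER-Src library by time (x axis, not to scale), RNA on the left and cycloheximide footprints on the right; grey is 0 h, green ethanol, red tamoxifen, and in the footprint panels circles are replicate 1 and squares replicate 2. The replication sum is lowest in tamoxifen at 24 h in both, and the mitosis sum differs between early and later times in ethanol as well.

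The mitosis sum in RNA was 4867 to 5055 CPM in the 0 and 1 h libraries, 7386 and 7471 CPM at 4 h in ethanol and tamoxifen, and 7070 and 5906 CPM at 24 h. In footprints the 2 libraries of 1 h replicate 2 stood lowest, at 3676 CPM (ethanol) and 3204 CPM (tamoxifen), against 3870 to 6016 CPM in the other 8. The part of such differences between times in the members' fall was not tested. The list counts at 24 h are read against 14.6% of all genes called and 5.84% called lower. At 24 h, 2 of 26 mitosis genes were lower in footprints (MAD2L1, -0.67, and KIF23, -0.61) and none higher. Of 34 further replication genes 4 were lower, among them the clamp loader cofactor DSCC1 (-1.02), POLE3 (-0.83) and TIPIN (-0.77). Of 33 further nucleotide genes 8 were lower and 1 higher, with ADSS, NME2 and IMPDH2 at -0.70, -0.61 and -0.55. Of 28 G1/S regulators 8 were lower, among them CCND1 (-0.89), CDK4 (-0.46) and CCND3 (-0.50).

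Harringtonine footprints of ER-Src cells had 1 library per time and no test. Against 0 h, 5 members were at least 1.5-fold higher and 8 lower at 1 h (22.4% and 24.9% of all genes), 2 and 14 of 46 at 4 h (24.7% and 25%), and 2 and 21 at 24 h (29.5% and 21.3%). The median log2 ratio was -0.11, -0.39 and -0.55 at the 3 times. PCNA was at 215, 188, 226 and 151 CPM, RRM2 at 508, 592, 506 and 335 CPM and TYMS at 173, 209, 153 and 119 CPM, at 0, 1, 4 and 24 h.

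Counts of 1 gene can include reads of another. By the GENCODE annotation lifted to GRCh37, coding exons of 5 members (CHAF1B, POLA2, POLD1, PRIM1 and TYMS) overlap another protein-coding gene, for TYMS and in part for PRIM1 on the opposite strand, and 11 members, RRM2, PCNA and DUT among them, have annotated pseudogenes of their name. How the authors counted such reads, and whether by strand, is not stated in the labels, so these genes' values carry that uncertainty.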

How the data were processed

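Ribosome footprints under cycloheximide or harringtonine and total RNA were counted in 36 libraries. The authors deposited 1 table of raw counts per RefSeq transcript for each library. TopHat and hg19 are named in the submitters' processing notes, without versions, and the counting program, its filters and its use of strand are not given in the sources used here. RNA was depleted of ribosomal RNA, per the labels' protocols. Counts for genes that share reads with overlapping genes or pseudogenes depend on that unstated step.

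For each symbol the transcript row with the highest mean count over all libraries was kept, giving 19137 symbols. The 47 members and the further gene lists were chosen with earlier results of these data known. Each assay of each model was fitted across all genes with edgeR 4.0.16 in R 4.3.3 (quasi-likelihood test, a filter with a minimum count of 10 and a minimum total of 15, TMM scaling), and p-values were adjusted over all genes by the Benjamini-Hochberg method with a threshold of 0.05. All arms of a fit share 1 estimate of the spread. In the fit of ER-Src footprints the 4 uninduced libraries formed 1 arm. Ribosome loading was the interaction of assay and arm. CPM values are after TMM scaling. Comparisons with 1 library a side used log2 ratios of CPM + 1 for genes at 10 CPM or more in 1 of the 2, counted from 1.5-fold. A count of 0 was set against a floor of 3 counts. The fits were tested on simulated data. Alternatives were DESeq2 1.42.0, other size factors, no filter, another choice of transcript, a block for the replicate number, the spread of the other model, another pseudocount and each library left out. Values in every library are given for the 6 genes with the smallest p in each direction of the 3 main footprint comparisons, for E2F1 and for genes called in opposite directions in the 2 BJ steps. From the other lists up to 3 genes with the smallest p are named.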

Additional observations from a re-analysis of the deposited data

Results flagged for a closer look

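Of 94 checks for a single uninduced footprint library far from the other 3, made over the highest and lowest library of each of the 47 genes, 3 were flagged. Chance gives about 1 in 20 groups, so 3 flags in 47 genes is near the number that chance gives. The uninduced libraries also differ in time and replicate number. MCM6 was at 206 CPM in the ethanol 1 h library, against 139 to 149 CPM in the others. POLD3 was at 66.4 CPM in the same library, against 38.3 to 43.1 CPM. POLE was at 37.9 CPM in the ethanol 24 h library, against 40.7 to 41.2 CPM. MCM6, POLD3 and POLE were not called at 24 h.

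For 14 genes, PCNA, GINS1 and GINS2 among them, the change after 24 h of tamoxifen differed from that after 1 h by the direct test of the 24 h against the 1 h footprint libraries, all lower at 24 h. The count was 4 without the second 1 h library and 5 without either 24 h library.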

How the results depend on the processing

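Over the genes called in each comparison, and E2F1 in all, 1775 values under the alternatives kept their direction and their side of the threshold, 276 lost the call, 3 gained one (E2F1 from EH to EL) and 5 reversed, all 5 for E2F1. Genes first called under an alternative are not in this tally and show in the counts of calls. Its log2 change was -0.12 in EL to ELR footprints without EL replicate 2 (highest 0.39 without EL replicate 1), 0.17 in loading from EH to EL without EH replicate 2 (lowest -0.75 without EH replicate 1), -0.86 at 1 h without tamoxifen 1 h replicate 2 (0.79 without replicate 1), and at 4 h -0.018 with DESeq2 and -0.14 without tamoxifen 4 h replicate 2 (0.091 without replicate 1). Of the counts and medians of members, 338 values stayed within the stated limits and 46 moved. With DESeq2, 5 members were called from EL to ELR, 0 in harringtonine footprints at either step, 0 in loading at either BJ step (median -0.089 from EL to ELR) and 0 in loading at 24 h. Taking the spread from the other model, 31 were called from EH to EL, 2 from EL to ELR and 29 from EH to ELR. Without the filter the harringtonine median from EH to EL was 0.61 and 0 were called from EL to ELR. With RLE size factors 1 member was called in loading from EL to ELR (median -0.10). With a pseudocount of 5, 2 members were at least 1.5-fold higher in ELR than EL RNA. Against ethanol at 24 h alone, an alternative chosen after seeing the data, the footprint median at 24 h was -0.30. The causes of these changes were not tested.

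With each library left out in turn, the median from EH to EL was 0.76 to 0.81 and from EH to ELR 0.67 to 0.77. From EL to ELR 11 to 18 members were called (median -0.056 to 0.0082). In harringtonine footprints 1 to 2 were called from EH to EL (median 0.29 to 0.46) and 0 to 1 from EL to ELR. Loading had a median of 0.029 to 0.13 from EH to EL and 1 to 2 calls from EL to ELR. At 24 h footprint calls ranged from 4 to 29, against 1 h from 4 to 21, RNA calls from 4 to 29 (0 to 2 at 4 h, with 2 without ethanol 24 h) and loading calls from 0 to 1. Same-numbered libraries correlated from -0.0092 to 0.034 in BJ and from 0.041 to 0.18 in ER-Src footprints, not above 0.1 in every pair, so the numbers were not taken to pair the samples, although some ER-Src pairs deviated together. The ER-Src check covered the tamoxifen times only, because each control was a single library. That check could not show whether ethanol and tamoxifen libraries of the same time deviated together. Mitosis sums of replicate 2 at 1 h did, at 3676 CPM (ethanol) and 3204 CPM (tamoxifen), against 6016 CPM in tamoxifen 1 h replicate 1. In RNA, members' median log2 ratio of tamoxifen to ethanol was -0.0002 at 1 h and -0.003 at 4 h. Ethanol at 4 h against ethanol at 1 h gave -0.31. The fits did not pair libraries by time. With a replicate block 41, 18 and 43 members were called from EH to EL, EL to ELR and EH to ELR, 2 and 1 in harringtonine footprints, 0 at 1 h and 4 h, 18 at 24 h (without CHAF1A, MCM10, POLA2 and RFC4) and 20 against 1 h. Harringtonine depth left 15 of 47 members untested in BJ cells.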
